A study of Homo sapiens with 12 samples.

Results

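Cells import, exchange and recycle amino acids through carriers of the solute carrier (SLC) families, and the genes described here are those of 6 such families, SLC1A, SLC3A, SLC7A, SLC36A, SLC38A and SLC43A. They were taken by symbol alone, which gave 40 of the 36433 gene symbols in the deposited expression table. No measured value entered this rule, although earlier results of these data were known when the families were chosen. The cells were HMEC-1, a microvascular endothelial line that was immortalised from human skin, grown in endothelial medium (EBM-2 with the EGM-2 supplements). All 4 groups received 50 nM of synthetic RNA with Lipofectamine RNAiMAX, a lipid transfection reagent, and were collected 48 h later. The RNA was a mimic of miR-126, of miR-143 or of miR-150 in the 3 treated groups and a non-targeting scrambled RNA in the controls, so the controls also went through transfection. A mimic is a synthetic copy of a microRNA, a short RNA that pairs with matching sites in messenger RNAs and lowers them. Each group had 3 libraries, numbered 2 to 4 in the labels, which do not say whether the numbers mark separate cultures or which arm of each microRNA the mimics copy. The p-values below therefore rest on differences among these libraries, which may be only technical. HMEC-1 is a single established line, so no result extends to other endothelial cells.

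Amino acid carriers divide the work by substrate and by driving force. SLC7A1 and its relatives take up arginine and lysine. The light chains, such as SLC7A5 and SLC7A11, exchange 1 amino acid for another and reach the cell surface only when joined to a heavy chain, SLC3A2 or SLC3A1. SLC1A5 exchanges neutral amino acids including glutamine, and SLC38 carriers use the sodium gradient to concentrate neutral amino acids. SLC36A1 uses protons, and SLC43A1 and SLC43A2 let large neutral amino acids pass down their gradient. In endothelial cells arginine uptake feeds nitric oxide synthesis, and glutamine and leucine feed growth through the kinase complex mTORC1, which senses amino acids at the lysosome.

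The mature sequences of 2 of the microRNAs are shown because the seed, bases 2 to 8 in capitals, sets which sites a microRNA pairs with. They come from RefSeq (GRCh38.p14), hsa-miR-126-3p at chr9:136670653-136670674 (plus strand) and hsa-miR-143-3p at chr5:149428978-149428998 (plus strand), and the third microRNA is miR-150, whose guide strand is hsa-miR-150-5p.
hsa-miR-126-3p: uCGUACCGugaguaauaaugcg
hsa-miR-143-3p: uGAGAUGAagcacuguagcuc

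The 2 seeds differ, and so do the 7-base matches searched for on the transcribed strand of the longest 3' UTR of each gene (GENCODE 29, GRCh38). CGGTACG, the match to miR-126-3p, occurred in 37 of 12426 tested genes with a 3' UTR (0.3%) and in 0 of the 24 tested transporter genes. TCATCTC, the match to miR-143-3p, occurred in 1793 of these genes (14.43%) and in 6 of the 24 transporter genes, namely SLC36A1, SLC38A1, SLC38A2, SLC38A3, SLC38A7 and SLC7A11. The libraries of SLC36A1, SLC7A11 and SLC38A7 did not overlap the controls with miR-143, and the stretch of SLC38A7 is not shown. Stretches of 30 bases around the match, with the match in capitals, are given for 3 genes. These are SLC36A1, SLC7A11 and SLC38A2, the last being the transporter gene with the highest control level.
SLC36A1 site at chr5:151488705-151488711 (plus strand): taaagctgggcttctttcTCATCTCtctcc
SLC36A1 site at chr5:151490298-151490304 (plus strand): aagtgggctcagaaactgTCATCTCctggt
SLC38A2 site at chr12:46359851-46359857 (minus strand): ctcatttgcactggactgTCATCTCattct
SLC7A11 site at chr4:138167167-138167173 (minus strand): ggacaagagcgcgagactTCATCTCaaaaa
SLC7A11 site at chr4:138165238-138165244 (minus strand): tagttattgactcagaatTCATCTCaggat

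In SLC38A2 and both sites of SLC7A11 the match is followed by an A, and in both sites of SLC36A1 it is not. A match of letters is a description and not a shown binding site.

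Values were TPM, relative transcript abundances, which divide by transcript length and by the total of the library, so levels of different genes can be set side by side within a library. Read totals are not part of such values, so sequencing depth is unknown and only the scatter among libraries of a group speaks to precision. The labels call the libraries miRNA libraries, while the table lists annotated transcripts of protein-coding and other genes. All 13 endothelial markers checked were detected, with summed levels of 1466 to 2899 TPM per library. Summed fibroblast and pericyte markers (10 genes) lay between 40.3 and 137 TPM and leukocyte markers (6 genes) between 27.4 and 70.2 TPM, nearly all of it CD68, while PTPRC reached at most 1.55 TPM. The 7 epithelial markers summed to 446 to 634 TPM in the controls, 524 to 580 with miR-126, 730 to 952 with miR-143 and 901 to 1024 with miR-150. Nearly all of that sum was KRT18 and KRT8, while KRT5 was above 0 in 1 library only and CDH1 reached at most 0.23 TPM, and its part in the results was not tested. In cell populations, fewer cells that express a gene and less RNA per cell cannot be told apart. Replicate 4 of miR-143 and replicate 4 of miR-150 stood apart, with a Spearman correlation across genes between deviation from the gene's mean and transcript length of -0.40 and -0.55, against -0.01 to 0.29 in the other 10. Ribosomal protein transcripts made up 24.03% of replicate 4 of miR-150 and 13.5% to 17.9% elsewhere.

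These libraries marked the transporter genes too. Of the 24 tested transporter genes, 13 had their lowest value of all 12 libraries in miR-150 mimic replicate 4 and 4 in miR-143 mimic replicate 4, while 10 had their highest value in miR-126 mimic replicate 3. The plot of the length trend against the number of transporter genes lowest in each library shows both libraries apart from the rest. Counts of transporter genes past the threshold and some single-gene results are given with and without them. The sums by role, the seed-match medians, the gene lists and the other single-gene results are given only with them.

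**Figure D1:**
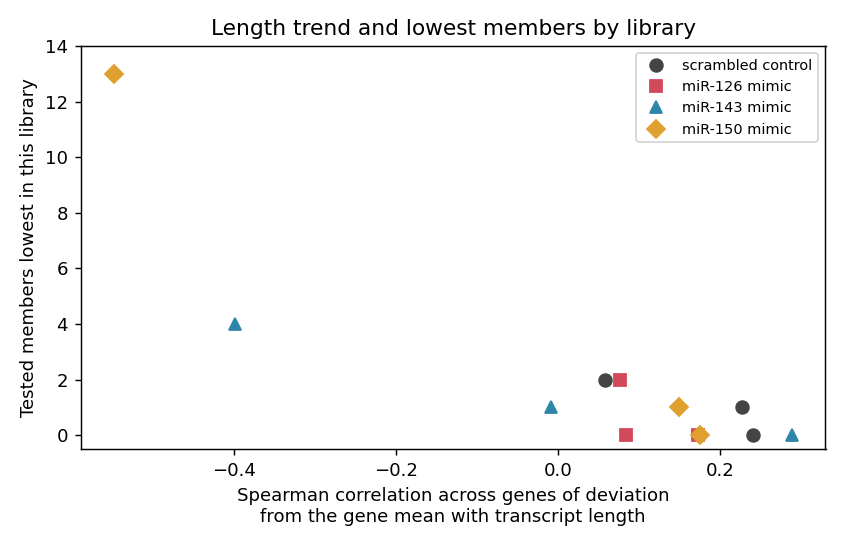
Number of the 24 tested transporter genes whose lowest value fell in each library (vertical axis) against the library's Spearman correlation between deviation from the gene mean and transcript length (horizontal axis), with 1 point per library and group shown by colour and shape. The 2 libraries with correlations of -0.40 and -0.55 hold 4 and 13 of the lowest values, and the other 10 libraries hold at most 2 each.

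Of the 40 genes, 24 reached at least 1 TPM in at least 3 libraries and were tested among 13750 genes in all. The other 16 stayed under this filter. SLC7A10 and SLC7A13 were listed at 0 in all libraries, and 14 were above 0 somewhere, with a highest value of 1.04 TPM for SLC1A1 in scrambled control replicate 3. Just inside the filter stood SLC1A3 and SLC7A2, which reached 1 TPM in 3 libraries, and just outside it SLC1A1, which did so in 1. The heavy chain SLC3A1, partner of SLC7A9, stayed at or under 0.486 TPM, and SLC7A9 at or under 0.366 TPM. HMEC-1 therefore carried transcripts of 1 of the 2 heavy chains at more than 1 TPM.

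In the controls 15 of the transporter genes reached a mean of 10 TPM, and the sum over all 40 was 989 ± 97.9 TPM (SD, n = 3). SLC38A2, the sodium-coupled carrier that takes up alanine and glutamine, led with 359 ± 58.3 TPM, followed by the heavy chain SLC3A2 with 133 ± 10.7 TPM and the glutamine exchanger SLC1A5 with 85.9 ± 5.76 TPM. These 3 genes held 58.5% of the summed control TPM. Their control libraries did not overlap, so the order of these 3 held in each library.

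Below them the order was less sharp. SLC38A1, another sodium-coupled glutamine carrier, measured 63.6 ± 11.6 TPM and SLC7A6, the light chain that exchanges arginine for neutral amino acids, 58.3 ± 9.85 TPM, with overlapping libraries. SLC38A10 followed with 49.3 ± 5.42 TPM and overlapped SLC7A6 but not SLC38A9, the lysosomal carrier that reports arginine to mTORC1, at 38.3 ± 1.27 TPM. SLC7A5 (LAT1, the leucine exchanger) at 33.4 ± 6.60 TPM, SLC43A3 at 26.7 ± 6.04 TPM and SLC38A6 at 22.0 ± 3.34 TPM each overlapped the gene before them. SLC43A3 shares the family name but is known for moving purine nucleobases. SLC38A2, SLC38A1 and the barely detected SLC38A4 lie side by side on chromosome 12 (SLC38A2 at chr12:46358189-46372867, SLC38A1 at chr12:46183063-46270017, both on the minus strand, GRCh38).

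**Figure D2:**
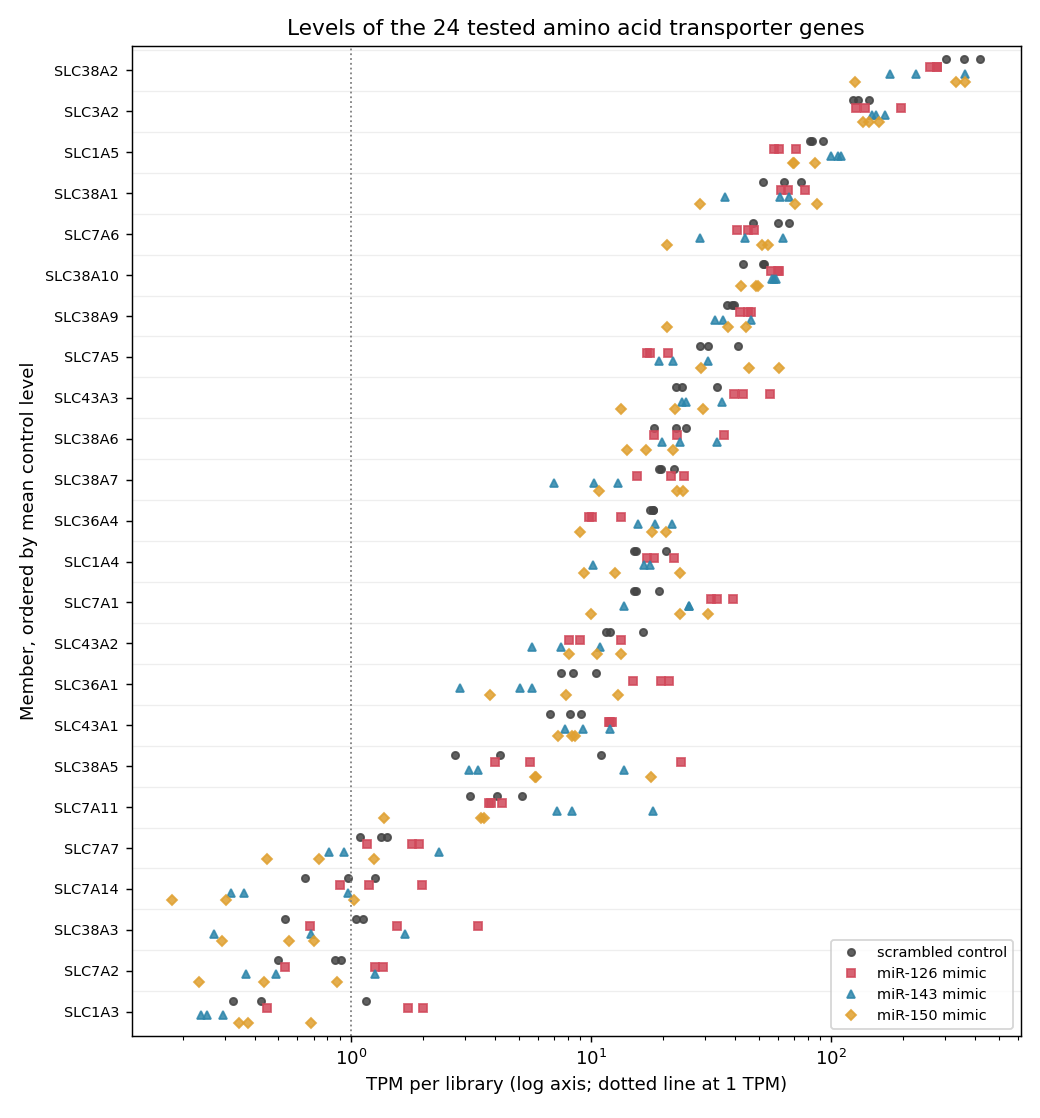
Level of each of the 24 tested transporter genes (rows, ordered by mean control level) in TPM on a log axis, with 1 point per library and group shown by colour and shape, and a dotted line at 1 TPM. SLC38A2 has the highest mean in all groups, SLC7A1, SLC36A1 and SLC43A3 have all 3 miR-126 points to the right of the controls, and SLC7A11 has all 3 miR-143 points to the right.

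Read by role, the summed level of the arginine and lysine carriers was above all controls and that of the light chains below all controls with miR-126, while the heavy chains and the sum over all carriers overlapped the controls. The SLC43 group was also above all controls with miR-126 (60.6 to 81.5 against 43.7 to 56.9 TPM). Most of that sum was SLC43A3 (46.1 of 68.4 TPM on average with miR-126), known for purine nucleobases. In the same group SLC43A1 was above all controls and SLC43A2 overlapped them. The acidic amino acid carriers were above as well (2.23 to 3.41 against 0.99 to 2.0 TPM), but 4 of the 5 stayed under the filter. Coding transcripts held 23.5% of the TPM of SLC1A3, the tested 1, with miR-126 and 76.9% in the controls. The neutral exchangers SLC1A4 and SLC1A5 were below (74.9 to 93.7 against 97.3 to 113 TPM). The sodium-coupled and the SLC36 carriers overlapped. With miR-143 the neutral exchangers (117 to 128 TPM) and the heavy chains (149 to 169 against 124 to 145 TPM) were above all controls and the other roles overlapped, and with miR-150 every role did. Summed TPM of the cationic group, mostly SLC7A1, was 18.4 ± 2.20 in the controls, 37.3 ± 4.09 with miR-126, 23.0 ± 7.41 with miR-143 and 22.4 ± 11.1 with miR-150 (SD, n = 3 each). The light chains summed to 97.5 ± 14.7 TPM in the controls, 69.4 ± 6.14 with miR-126, 82.2 ± 24.03 with miR-143 and 91.5 ± 35.3 with miR-150. The heavy chains summed to 133 ± 10.5, 154 ± 36.6, 157 ± 10.3 and 146 ± 11.4 TPM in the same order. All 40 genes together summed to 947 ± 106 TPM with miR-126, 904 ± 158 with miR-143 and 882 ± 267 with miR-150, which all overlapped the controls. These sums were not tested.

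With the miR-126 mimic, SLC7A1, the main arginine importer, and SLC36A1, a proton-coupled carrier of small neutral amino acids found on lysosomes, had mean levels 2.09 and 2.10 times those of the controls. SLC43A3 and SLC43A1 (a facilitator of leucine and its relatives) were also above all controls. SLC7A5, SLC1A5 and SLC36A4, which carry leucine, glutamine, and proline and tryptophan, were below all controls. None of these passed with the group as the only term in the fit of all 12 libraries, and 6 of these 7 did once the replicate number was included. Fitted on the 2 groups alone, also with the group as the only term, all 7 passed, where 1726 of 13241 genes did.

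SLC7A1 (chr13:29509410-29595688, minus strand) measured 15.5, 19.3 and 15.2 TPM in the control libraries 2, 3 and 4 and 33.5, 39.2 and 31.8 TPM with miR-126. All 3 miR-126 libraries lay above all 3 controls. The log2 difference on the log2(TPM + 1) scale, which understates changes of low genes, was 1.02 (SE 0.35), with an adjusted p of 0.12 in limma and of 0.017 with the replicate number as a block.

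SLC36A1 (chr5:151437046-151492381, plus strand) measured 7.55, 10.5 and 8.42 TPM in the controls and 19.5, 21.2 and 15.0 TPM with miR-126, again without overlap. Its log2 difference was 0.99 (SE 0.35; limma adjusted p = 0.134, and 0.0204 with the block). The related SLC36A4, a high-affinity carrier of proline and tryptophan, went the other way, at 17.6, 18.1 and 18.1 TPM in the controls and 9.80, 13.3 and 10.2 TPM with miR-126. Its log2 difference was -0.66 (SE 0.26; limma adjusted p = 0.179, and 0.0619 with the block), so it passed in neither of these fits, although no library overlapped.

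SLC43A3 (chr11:57406954-57427580, minus strand) measured 22.6, 33.7 and 23.98 TPM in the controls and 42.99, 55.9 and 39.5 TPM with miR-126. The lowest miR-126 library stood above the highest control, and the log2 difference was 0.77 (SE 0.27; limma adjusted p = 0.135, and 0.00835 with the block). SLC43A1, which lies close by on the same chromosome and strand (chr11:57484534-57515786), measured 9.08, 6.79 and 8.16 TPM against 11.9, 12.2 and 12.1 TPM. Its 3 miR-126 libraries were nearly alike and above all controls, with a log2 difference of 0.55 (SE 0.18; limma adjusted p = 0.104, and 0.0294 with the block). The third SLC43 gene, SLC43A2, overlapped the controls.

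SLC7A5 (chr16:87830023-87869488, minus strand) measured 28.5, 40.9 and 30.9 TPM in the controls and 17.6, 21.0 and 17.1 TPM with miR-126. Every miR-126 library was below every control, with a log2 difference of -0.80 (SE 0.26; limma adjusted p = 0.10, and 0.00698 with the block). Its heavy chain SLC3A2 (chr11:62856102-62888875, plus strand) measured 124, 145 and 130.1 TPM in the controls and 127, 195 and 139 TPM with miR-126, which overlapped (log2 difference 0.19, SE 0.15, limma adjusted p = 0.554).

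SLC1A5 (chr19:46774883-46788594, minus strand) measured 83.2, 92.5 and 81.9 TPM in the controls and 60.7, 71.5 and 57.7 TPM with miR-126, with no overlap. The log2 difference was -0.44 (SE 0.12), with the smallest adjusted p of these genes in limma, 0.0611, and 0.00497 with the block. SLC38A2 was also below all controls, at 277, 278 and 258 TPM against 302, 358 and 418 TPM, but its log2 difference of -0.39 (SE 0.36, limma adjusted p = 0.614, and 0.454 with the block) was within the error.

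Counted over the 24 tested transporter genes, 0 passed limma's adjusted threshold of 0.05 with miR-126, where 5.11% of all tested genes did, and 8 had an unadjusted p under 0.05, where 19.4% of all genes did. Groups did not overlap for 10 of them (6 above and 4 below the controls), against 34.1% of all tested genes. With the replicate number as a block, which the correlation between same-numbered libraries allows for this pair of groups, 6 of 24 passed, where 17.0% of all genes did. SLC7A1, SLC36A1, SLC43A3 and SLC43A1 rose in that fit, and SLC7A5 and SLC1A5 fell. Leaving out both libraries with the length trend, which leaves these groups as they are and changes the shared estimate of spread and the genes tested, also gave 6 (SLC7A1, SLC36A1 and SLC43A3 higher, SLC7A5, SLC1A5 and SLC36A4 lower), where 13.4% of all genes passed. With libraries centred on their medians 3 passed, all lower. SLC7A1, SLC43A1, SLC43A2, SLC36A4 and SLC38A7 are described here by a choice made after their values were seen. The median log2 difference of the 24 genes was 0.19 and that of all tested genes 0.10.

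**Figure D3:**
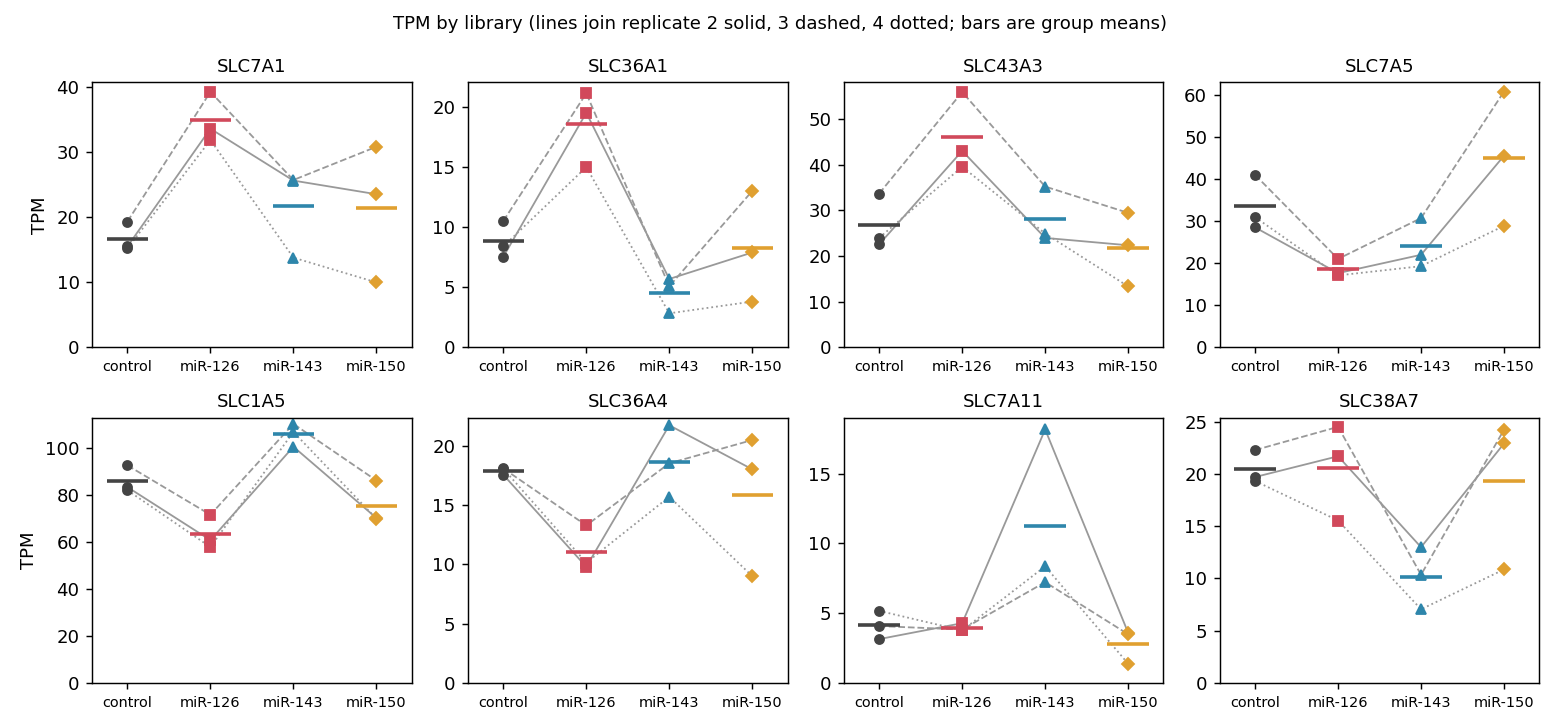
TPM in each library for 8 transporter genes, with groups on the horizontal axis, 1 point per library, bars at group means and lines joining libraries with the same replicate number. SLC7A1, SLC36A1 and SLC43A3 are highest and SLC1A5 and SLC7A5 lowest with miR-126, SLC7A11 is highest and SLC38A7 lowest with miR-143, and the dotted lines (replicate 4) drop with miR-143 or miR-150 in several panels.

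With the miR-143 mimic, SLC7A11, the light chain that imports cystine in exchange for glutamate and so supplies glutathione synthesis, was 2.73 times the control mean. SLC38A7, a carrier that exports glutamine from lysosomes, and SLC36A1 were near 0.5 times the control mean. SLC1A5 was 1.23 times the control mean and SLC43A2 0.601 times. None passed with the group as the only term in the fit of all 12 libraries, and SLC7A11 and SLC38A7 passed without the 2 libraries that stood apart.

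SLC7A11 (chr4:138164097-138242349, minus strand) measured 3.14, 4.07 and 5.16 TPM in the controls and 18.2, 7.22 and 8.35 TPM with miR-143. Replicate 2 was far above the other 2, and all 3 lay above the controls. The log2 difference was 1.17 (SE 0.34, limma adjusted p = 0.0941), and without both libraries that stood apart it was 1.31 (adjusted p = 0.0492), a fit that keeps the high replicate 2. Without replicate 2 and with all other libraries it was 0.80 (adjusted p = 0.229). Its level with miR-126 (4.28, 3.82 and 3.76 TPM) lay inside the control range.

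SLC38A7 (chr16:58665109-58685104, minus strand) measured 19.7, 22.3 and 19.3 TPM in the controls and 12.98, 10.3 and 7.04 TPM with miR-143, all below the controls. Replicate 4, one of the libraries that stood apart, was the lowest. The log2 difference was -0.98 (SE 0.30, limma adjusted p = 0.11) with it and -0.76 (adjusted p = 0.0496) without both such libraries.

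SLC38A2 measured 364, 227 and 177 TPM with miR-143, with replicate 2 inside and the other 2 libraries below the control range (log2 difference -0.54, SE 0.36, limma adjusted p = 0.495).

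SLC36A1 measured 5.70, 5.09 and 2.84 TPM with miR-143, below all controls, with a log2 difference of -0.85 (SE 0.35, limma adjusted p = 0.239). SLC43A2, the facilitator of branched-chain amino acids and phenylalanine, measured 12.1, 16.5 and 11.6 TPM in the controls and 7.48, 10.9 and 5.69 TPM with miR-143, also without overlap (log2 difference -0.69, SE 0.27, limma adjusted p = 0.209). SLC43A2 is an uncertain value, since its symbol covers 2 Ensembl genes and annotated coding transcripts of GENCODE 29 held 15.0% of its control TPM.

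SLC1A5 measured 100.4, 110.1 and 107 TPM with miR-143, above all controls, with a log2 difference of 0.30 (SE 0.12, limma adjusted p = 0.236). The heavy chain SLC3A2 was above all controls as well, at 149, 168 and 154 TPM, with a log2 difference of 0.24 (SE 0.15, limma adjusted p = 0.467). SLC7A5 measured 22.0, 30.7 and 19.3 TPM and overlapped the controls. The exchangers SLC1A5 and SLC7A5 stood on opposite sides of the control means with miR-143, and on the same side with miR-126.

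Over the 24 tested transporter genes, 0 passed limma's adjusted threshold with miR-143, where 3.32% of all tested genes did, and 5 had an unadjusted p under 0.05, where 16.8% of all genes did. Groups did not overlap for 8 (4 above and 4 below), against 25.3% of all tested genes. Without both libraries that stood apart, 2 passed, where 5.19% of all genes did. The median log2 difference of the 24 was -0.04, the same as that of all tested genes to 2 decimals.

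Set beside the seed matches, 5 of the 6 tested transporter genes with TCATCTC were below 0 in the miR-143 comparison, with a median log2 difference of -0.39. The exception was SLC7A11, the gene with 2 matches that are both followed by an A, which was above all controls. Of the 5, SLC38A1 (-0.24) changed sign in 2 of 17 alternative fits. SLC38A3 was low, at 0.97 times its control mean of 0.90 TPM. Of the 18 without the match 9 were below 0, with a median of 0.02. Over all tested genes the medians were -0.20 for the 1793 with the match, of which 70.89% were below 0, and -0.02 for the 10633 without it, of which 52.63% were. With miR-150, which has another seed, genes with TCATCTC also had the lower median, -0.18 against -0.10 over all tested genes. The 6 transporter genes with the match had a median of -0.27, close to the -0.23 of the 18 without it. All 6 were below 0, as were 13 of the 18. With miR-126 the medians over all tested genes were 0.09 with the match and 0.10 without it. The miR-143 and miR-150 medians and counts include the 2 libraries with the length trend. Genes with and without the match were not balanced for 3' UTR or transcript length, and the part of length in these medians was not tested.

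**Figure D4:**
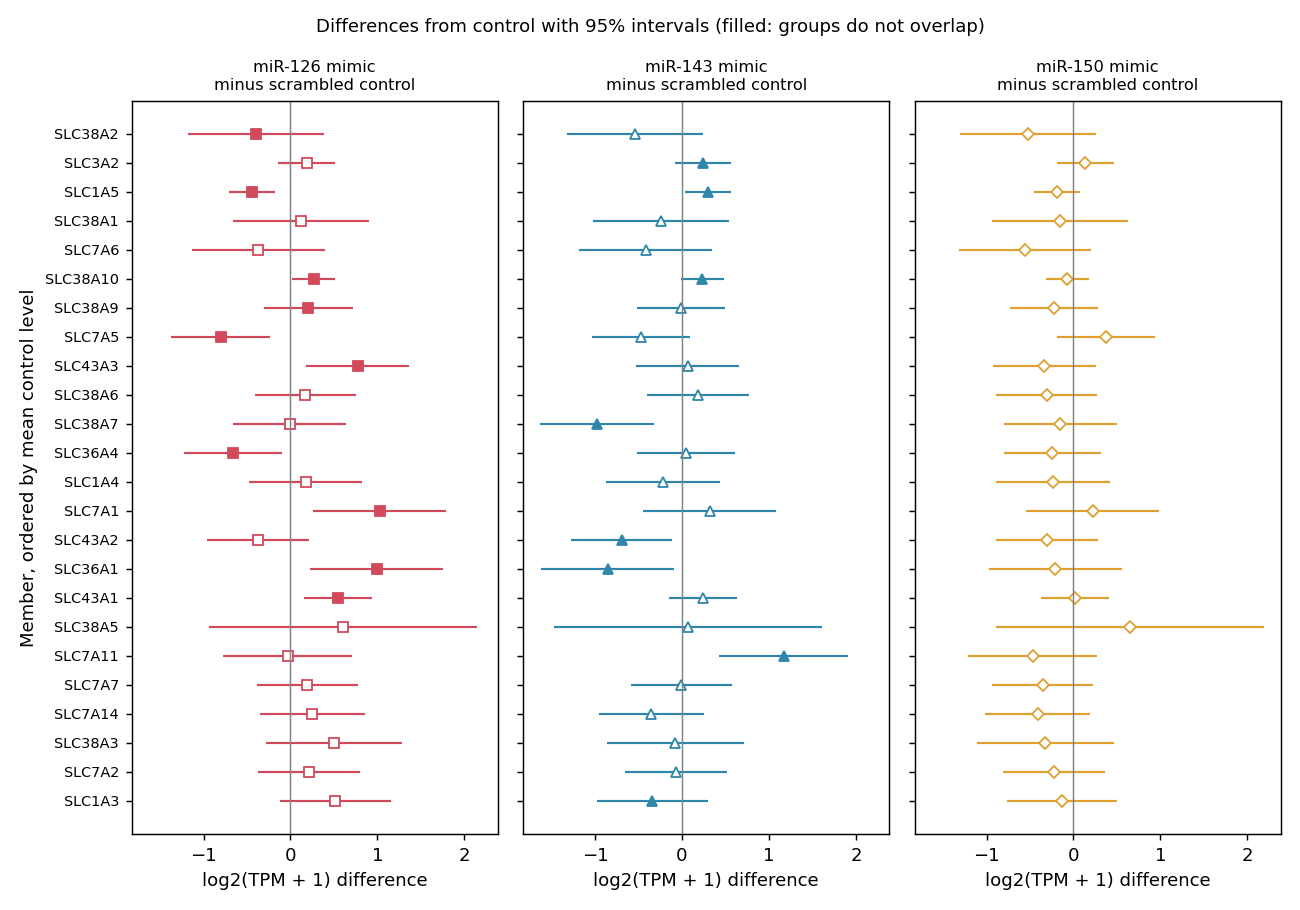
Difference of each mimic from the scrambled control for the 24 tested transporter genes (rows) on the log2(TPM + 1) scale, with 95% intervals from limma and 1 panel per mimic. Filled points mark genes whose 3 mimic libraries do not overlap the 3 controls, 10 with miR-126, 8 with miR-143 and 0 with miR-150.

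With the miR-150 mimic no transporter gene separated from the controls. SLC7A5 had the mean farthest above its control among the genes over 10 TPM, at 1.35 times, and SLC7A1 followed at 1.29 times. SLC38A2 was 0.762 times and SLC7A6 0.726 times the control mean. Every one of the 24 overlapped the controls, where 21.5% of all tested genes did not.

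SLC7A5 measured 45.5, 60.7 and 28.9 TPM with miR-150, so that replicates 2 and 3 were above all controls and replicate 4 lay within them (log2 difference 0.37, SE 0.26, limma adjusted p = 0.50). SLC7A1 showed the same split more sharply, at 23.5, 30.8 and 9.98 TPM against 15.2 to 19.3 TPM in the controls (log2 difference 0.22, SE 0.35, limma adjusted p = 0.793). Replicate 4 was below and the other 2 libraries above all controls. Without both libraries that stood apart, SLC7A1 rose by 0.67 on the log2 scale (adjusted p = 0.0486).

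SLC38A2 measured 362, 333 and 126 TPM and SLC38A1 71.1, 87.2 and 28.6 TPM, with replicate 4 alone below the controls in both. SLC7A6 behaved likewise, at 51.6, 54.7 and 20.7 TPM. SLC38A9 and SLC38A10 measured 44.5, 37.3 and 20.8 TPM and 49.5, 48.9 and 42.2 TPM. For SLC38A2 the log2 difference was -0.52 (SE 0.36, limma adjusted p = 0.497) and -0.04 without both libraries that stood apart.

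Over the 24 tested transporter genes, 0 passed limma's adjusted threshold with miR-150, where 3.32% of all tested genes did, and 0 had an unadjusted p under 0.05, where 17.4% of all genes did. Their median log2 difference was -0.23 and that of all tested genes -0.11. Without both libraries that stood apart the count was 1, SLC7A1, where 4.31% of all genes passed. All 3 comparisons share the same controls, so their values are given side by side and not as separate evidence.

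The mimics were also compared with each other, in the same fit of all 12 libraries, so the controls entered the estimate of the spread. With the group as the only term, 5 transporter genes passed limma's threshold, SLC36A1 and SLC1A5 between miR-126 and miR-143, SLC7A5 and SLC43A3 between miR-126 and miR-150, and SLC7A11 between miR-143 and miR-150. Fitted on the 2 groups compared alone, SLC36A1 and SLC1A5 passed and the other 3 did not. Each of these pairs of groups shares 1 mimic with another pair.

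SLC36A1 rose with miR-126 relative to miR-143, at 18.6 ± 3.18 against 4.55 ± 1.51 TPM (SD, n = 3 each), a ratio of 4.09. The log2 difference was 1.85 (SE 0.35, limma adjusted p = 0.0194), in a comparison in which the median of all tested genes was 0.15. SLC1A5 fell, at 63.3 ± 7.23 against 106 ± 4.95 TPM, with a log2 difference of -0.74 (SE 0.12, limma adjusted p = 0.0103). In both genes all 3 libraries of 1 mimic lay above all 3 of the other. Of the 24 transporter genes these 2 passed, where 2.52% of all genes did. With the replicate number as a block 5 passed, where 11.0% of all genes did, adding SLC38A7 and SLC43A3 on the higher side and SLC7A11 on the lower side. With libraries centred on their medians 4 passed, 1 higher and 3 lower. Leaving out single libraries gave between 0 and 2 calls. SLC1A5 passed in 4 of 6 such fits and was lost without miR-126 replicate 2 (-0.71, adjusted p = 0.0634) or replicate 4 (-0.67, adjusted p = 0.0606). SLC36A1 passed in 1 of 6, without miR-143 replicate 2, and without each of the other 5 libraries its log2 difference was 1.60 to 1.98 (adjusted p = 0.0529 to 0.0988). Without both libraries that stood apart 3 passed, SLC36A1 on the higher side and SLC1A5 and SLC36A4 on the lower side, where 4.25% of all genes did.

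SLC43A3 was higher with miR-126 than with miR-150, at 46.1 ± 8.61 against 21.7 ± 8.06 TPM, with a log2 difference of 1.10 (SE 0.27, limma adjusted p = 0.0465). Without both libraries that stood apart this difference was 0.81 and did not pass (adjusted p = 0.0885). SLC7A5 was lower with miR-126, at 18.6 ± 2.12 against 45.0 ± 15.9 TPM, a ratio of 0.413, with a log2 difference of -1.18 (SE 0.26, limma adjusted p = 0.0314). Without both libraries that stood apart the difference for SLC7A5 was -1.46 (adjusted p = 0.00569), and SLC36A4 passed with it on the lower side, while 5.09% of all genes passed. With all libraries SLC43A3 and SLC7A5 were the 2 of 24 genes that passed, where 3.91% of all genes passed and the median of all genes was 0.22. With libraries centred on their medians SLC7A5 and SLC36A4 passed, both lower, and SLC43A3 did not (0.84, adjusted p = 0.0512). Neither SLC43A3 nor SLC7A5 passed with no filter on low values (adjusted p = 0.0899 and 0.0624) or with only the 2 groups fitted (0.189 and 0.15). With the block 6 passed, where 18.9% of all genes did, namely SLC36A1, SLC38A10, SLC43A1, SLC43A3 and SLC7A1 higher and SLC7A5 lower. Leaving out single libraries gave between 0 and 2 calls, and each gene passed in 1 of 6 such fits. SLC43A3 did so without miR-150 replicate 3 (1.35, adjusted p = 0.0221), and its adjusted p was 0.0821 to 0.141 without each of the other 5 libraries. SLC7A5 did so without miR-150 replicate 4 (-1.46, adjusted p = 0.00726), and its adjusted p was 0.057 to 0.122 without each of the others.

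SLC7A11 was the 1 transporter gene past the threshold between miR-143 and miR-150, at 11.2 ± 6.02 against 2.82 ± 1.25 TPM, with a log2 difference of 1.64 (SE 0.34, limma adjusted p = 0.0299). Over all genes 2.19% passed in this comparison. The difference was 1.47 without both libraries that stood apart and did not pass (adjusted p = 0.0808), which left 0 transporter genes past the threshold in limma and 5 with an unadjusted p under 0.05, while 1.93% of all genes passed. With the block and all libraries 4 passed, where 9.75% of all genes did, SLC1A5 and SLC7A11 higher and SLC38A7 and SLC7A5 lower with miR-143. With libraries centred on their medians 3 passed, 1 higher and 2 lower. SLC7A11 did not pass with no filter on low values (adjusted p = 0.0784) or with only the 2 groups fitted (0.27). SLC7A11 passed in 2 of 6 fits that left out a single library, those without replicate 3 of either mimic. Without its high miR-143 replicate 2 the log2 difference was 1.26 (adjusted p = 0.0945), and without each of the other 3 libraries the adjusted p was 0.0594 to 0.0658.

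The transcripts behind these sums are estimates, since they share exons, and were not tested. SLC7A1 and SLC1A5 came nearly all from coding transcripts in every group. SLC1A5 had 2 main transcripts, of which ENST00000412532.6 measured 37.9, 33.7 and 33.2 TPM in the controls and 20.3, 26.3 and 17.7 TPM with miR-126. The other, ENST00000542575.6, measured 44.5, 58.0 and 47.7 TPM in the controls and 40.3, 44.4 and 39.3 TPM with miR-126. Both were below their controls with miR-126, without overlap, though narrowly for the second.

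SLC38A2 was a mixture. Coding transcripts held 65.5% of its TPM in the controls and 52.2% with miR-126, and its main coding transcript ENST00000256689.9 measured 198, 168 and 209 TPM against 84.8 to 118 TPM. These 3 miR-126 libraries lay well below the controls, a wider gap than for the sum over the gene. A transcript annotated for nonsense-mediated decay, ENST00000549258.5, measured 56.4, 58.8 and 65.4 TPM against 38.4, 51.8 and 47.9 TPM. The main coding transcript, which carries the printed site, was below all controls with the other mimics too. With miR-143 it measured 167.6, 149.5 and 141.1 TPM, the first just under the lowest control of 168.3 TPM. With miR-150 it measured 148.9, 155.8 and 99.46 TPM. SLC7A11 had 1 coding transcript, ENST00000280612.9, at 3.14, 2.65 and 4.001 TPM in the controls and 16.3, 6.54 and 8.35 TPM with miR-143, so its higher level with miR-143 lay in the coding transcript.

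SLC38A7's main transcript ENST00000219320.8 measured 12.98, 13.2 and 12.1 TPM in the controls and 5.95, 7.67 and 5.02 TPM with miR-143, without overlap. SLC36A1's main transcript ENST00000243389.7, which carries both printed sites, measured 5.84, 8.40 and 7.44 TPM in the controls and 3.58, 4.53 and 2.73 TPM with miR-143. SLC43A3 was spread over many transcripts whose estimates moved between libraries of 1 group. ENST00000352187.5, for example, ranged from 0.198 to 16.8 TPM among the controls.

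Some sums may hold reads of overlapping genes (lengths are the longest overlap of a pair of exons), since the strand of the libraries is not given in the sources used here. SLC7A6 shares 3371 exonic bases with SLC7A6OS on the opposite strand, which measured 21.5 TPM on average, and is uncertain for that reason. SLC38A6 shares 245 bases with TRMT5, likewise on the opposite strand. Of the genes described above, SLC1A5 shares 780 bases with AC008622.2, SLC7A11 691 with SLC7A11-AS1, SLC38A10 610 with AC027601.4 and SLC7A5 271 with AC126696.2, all on the opposite strand, and the levels of these 4 partners were not analysed here. SLC43A3 shares 300 bases with AP000781.2 on the same strand, which measured 0.767 TPM on average. The values of these genes carry the same uncertainty.

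Genes that act with these carriers were read from 4 lists. The first holds 25 genes of the integrated stress response and of serine and asparagine synthesis, through which the transcription factor ATF4 raises many of these carriers when amino acids run short. ATF4 itself measured 288, 230 and 290.4 TPM in the controls, 240, 206 and 236 TPM with miR-126, 210.1, 171 and 266 TPM with miR-143 and 250, 220 and 308 TPM with miR-150. All groups overlapped the controls. With miR-126, 0 of 25 passed in limma (5.11% of all tested genes did) and 4 had an unadjusted p under 0.05 (19.4% of all). With the block 5 of 25 passed, near the 17.0% of all genes, and all 5 rose, ATF3, NUPR1, SESN2, TRIB3 and PPP1R15A, named together after their values were seen. The largest of these was NUPR1, at 0.96 (SE 0.27, limma adjusted p = 0.0374 with the block).

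With miR-143, 2 of the 25 fell, where 3.32% of all tested genes passed in either direction. PHGDH, the first enzyme of serine synthesis, measured 75.2, 72.2 and 61.6 TPM in the controls and 46.0, 38.7 and 35.5 TPM with miR-143 (log2 difference -0.79, SE 0.16, limma adjusted p = 0.025). SHMT2, which makes glycine from serine in mitochondria, measured 137, 146 and 132 TPM against 94.4, 104 and 94.3 TPM (log2 difference -0.50, SE 0.11, limma adjusted p = 0.0311). No library overlapped for either. With miR-150, where 3.32% of all tested genes passed, 1 of 25 fell, MTHFD2, a mitochondrial folate enzyme, at 124, 151 and 126 TPM against 41.6, 61.8 and 29.4 TPM (log2 difference -1.63, SE 0.23, limma adjusted p = 0.00351). The medians of the list were 0.30 with miR-126, -0.29 with miR-143 and -0.12 with miR-150, against 0.10, -0.04 and -0.11 over all tested genes.

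Of 38 tested genes of amino acid sensing by mTORC1, 1 passed with miR-126 and 0 with miR-143 or miR-150 (limma, with 7, 4 and 5 at an unadjusted p under 0.05). Over all tested genes 5.11%, 3.32% and 3.32% passed, and 19.4%, 16.8% and 17.4% had an unadjusted p under 0.05, so the list was not above these shares. The 1 was LAMTOR1, which anchors the sensing complex on lysosomes, at 91.2, 91.1 and 92.0 TPM in the controls and 155, 144 and 164 TPM with miR-126 (log2 difference 0.74, SE 0.11, limma adjusted p = 0.00427). With the block 5 of the 38 rose with miR-126, a share of 13.2% where 17.0% of all genes passed. The list's median was 0.24 with miR-126, 0.02 with miR-143 and -0.10 with miR-150, against 0.10, -0.04 and -0.11 over all tested genes.

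Of 6 tested amino acid transporters of other families, 1 rose with miR-126, CTNS, the lysosomal cystine exporter, at 27.2, 24.1 and 29.98 TPM in the controls and 39.4, 39.3 and 50.1 TPM (log2 difference 0.64, SE 0.16, limma adjusted p = 0.0424), where 5.11% of all tested genes passed. With the block 2 of 6 passed (17.0% of all genes), and with miR-143 and miR-150 0 did without it (1 and 1 at an unadjusted p under 0.05). The list's medians were 0.23, 0.04 and 0.30.

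Of 13 glutathione genes, which use the cystine that SLC7A11 imports, GGT5, a surface enzyme that cleaves glutathione conjugates, rose with each mimic. It measured 21.2, 15.1 and 16.5 TPM in the controls, 39.4, 32.9 and 40.0 TPM with miR-126, 38.1, 30.2 and 29.2 TPM with miR-143 and 47.0, 40.0 and 48.6 TPM with miR-150. No mimic library overlapped the controls, and the limma adjusted p-values were 0.00434, 0.0166 and 0.00117, all against the same 3 controls. GGT7 also rose with miR-126 (log2 difference 0.84, SE 0.20, limma adjusted p = 0.0371), so that 2 of 13 passed there, 1 with miR-143 and 2 with miR-150, where 5.11%, 3.32% and 3.32% of all tested genes passed. The second gene with miR-150 was GSR, glutathione reductase, which fell from 52.5, 46.5 and 50.7 TPM to 26.0, 33.4 and 19.4 TPM (log2 difference -0.93, SE 0.18, limma adjusted p = 0.0157). The list's medians were 0.07, 0.16 and 0.05.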

How the data were processed

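Values were TPM, which the authors made with kallisto, per the submitters' processing notes, which also name FastQC, sleuth and GRCh38 (hg38). Versions, annotation and filters were not given in the sources used here. All 12 TPM columns were matched to samples by name and 0 were left without one. TPM of transcripts were summed per symbol. The filter kept 13750 genes that reached 1 TPM in 3 or more libraries. They were tested as log2(TPM + 1) with limma 3.58.1 (R 4.3.3; trend, two-sided, group as the only term, all 12 libraries), with Benjamini-Hochberg adjustment over these genes per comparison and a threshold of 0.05. The fit was tried on simulated data with independent scatter in each library. These held neither the correlation of same-numbered libraries nor the length trend, so the trial does not speak to either. TPM share a constant total and keep length effects of RNA quality, so a few abundant transcripts can move all others.

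The transporter genes, the 4 lists and the cell markers were chosen with earlier results of these data known. Named genes were those past the threshold in any comparison, the 10 highest in the controls and the heavy chains, and per list at most 4 past the threshold, by size, with ATF4. Positions and 3' UTRs came from GENCODE 29, which held 90.6% of the transcripts by identifier.

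The labels do not explain the replicate numbers 2 to 4 that every group carries. Deviations from the group means were correlated over genes between libraries with equal numbers. In the order 2, 3, 4 the correlations were 0.289, 0.634 and 0.401 (miR-126 and control), 0.321, 0.664 and 0.365 (miR-126 and miR-143), 0.291, 0.547 and 0.284 (miR-126 and miR-150), and 0.586, 0.634 and 0.737 (miR-143 and miR-150). All are above 0.1, the mark used here to treat the number as a pairing of these groups, by the data and not by the labels. The 3 correlations of a pair are not independent, since deviations are taken from means of 3 libraries. The value of 0.737 is between the 2 libraries with the length trend, where a pairing and that trend cannot be told apart. The block was fitted to all 12 libraries and 4 groups at once, and so also covers the pairs where some correlations were under 0.1. Alternatives were other pseudocounts (0.1 and 5), no filter or 5 TPM, median centring, quantile normalization, the block, only the 2 groups compared, coding transcripts only, and libraries left out. Count models need read counts and could not be run on TPM.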

Additional observations from a re-analysis of the deposited data

How the results depend on the processing

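Counts below are transporter genes past limma's threshold of 0.05, of 24 tested (38 with no filter, 21 with coding transcripts only, 19 to 23 with only the 2 groups compared), with the share of all genes that passed in the same fit in parentheses. For miR-126 against the control, 0 (5.11%) became 3, all lower, with median centring (6.55%), 4, 1 higher and 3 lower, with quantile normalization (7.48%), 6 with the replicate block (17.0%), 6 without both libraries that favour short transcripts (13.4%), 9 with the block and without these, chosen after seeing the data (32.1%), and 7 with only the 2 groups (1726 of 13241 genes). For miR-143 against the control, 0 (3.32%) became 2 with median centring (4.36%), quantile normalization (5.56%), coding transcripts only (4.32%) or without both libraries (5.19%), 5 with the replicate block (12.9%) and 6 with the block and without both (16.8%). Here, as for miR-150 against the control, same-numbered libraries correlated unevenly, with 0.044, 0.65 and 0.174, and with 0.073, 0.604 and 0.075. Number 2 stayed under 0.1 in both and number 4 in the second, while number 3 did not. Whether the numbers pair these groups is therefore uncertain. For miR-150 against the control, the block gave 0 (12.3%), with 4 at an unadjusted p under 0.05 in limma, leaving out both libraries 1 (4.31%), and both together 2 (12.9%). For miR-126 against miR-143, 2 (2.52%) became 4, 1 higher and 3 lower, with centring (3.19%) or quantile normalization (3.58%), 5 with the block (11.0%) and 8 with the block and without both (15.3%). For miR-126 against miR-150, 2 (3.91%) became 0 with no filter (1.66%) or only the 2 groups (0.182%), 2 (SLC36A4 and SLC7A5, both lower) with centring (4.02%), 3 with quantile normalization (4.46%), and 6 with the block (5 higher and 1 lower, 18.9%) or with the block and without both libraries (3 higher and 3 lower, 17.9%). For miR-143 against miR-150, 1 (2.19%) became 0 with no filter (1.01%), only the 2 groups (0.0309%) or without both libraries (1.93%), 3, 1 higher and 2 lower, with centring (2.36%) or quantile normalization (2.95%), 4 with the block (9.75%) and 5 with the block and without both (11.0%). Leaving out single libraries gave 0 to 0 for the comparisons with the control and 0 to 2 for each comparison between mimics. Apart from settings with fewer libraries or genes, the cause was not tested. Of 5 single-gene differences past the threshold, 0 changed sign in 85 alternative values and 55 of these passed. Of 51 others, 18 changed sign in at least 1 alternative, and 0 of those 48 values passed. The depth is unknown, so its limit cannot be given.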

Other observations

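Replicate number 3 was the highest library of all 4 groups for 9 of the 24 tested transporter genes, against 18.9% of all tested genes, while number 2 and number 4 were so for 0 (4.01% and 1.72% of all tested genes). The 9 were SLC1A4, SLC1A5, SLC38A5, SLC38A6, SLC3A2, SLC43A2, SLC43A3, SLC7A1 and SLC7A5. The widest case, singled out after its values were seen, was SLC38A5, a sodium-coupled carrier of glutamine and glycine on the X chromosome. It measured 2.71, 11.01 and 4.19 TPM in the control libraries 2, 3 and 4, 5.56, 23.7 and 3.97 TPM with miR-126, 3.11, 13.8 and 3.40 TPM with miR-143 and 5.92, 17.8 and 5.83 TPM with miR-150. The difference between the numbers was larger than that between the groups, and the labels do not say what the numbers mark.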
